A study of Homo sapiens with 8 samples.

Results

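The small leucine-rich proteoglycans studied here were 9 genes of secreted matrix proteins, ASPN, DCN, BGN, LUM, FMOD, PRELP, OMD, OGN and PODN. They were chosen by name from the 23354 genes of the count table, with earlier results of these data known. All 9 were listed in the table, and 8 of them had enough counts to be tested among 15564 genes. Expression was measured by RNA sequencing of mesenchymal stromal cells made from the established human embryonic stem cell line H9. The 8 libraries were 3 of cells frozen in osmolyte solutions without a DMSO label (SMC held for 2 h, SGC for 1 h and SGI for 1 h), 2 of cells frozen in DMSO (held for 1 h or 0 h) and 3 of fresh cells (1 h with DMSO, 1 h in medium, and 0 h). The makeup of SMC, SGC and SGI is not given in the sources used here, and no library of unfrozen cells in these solutions was analysed, so exposure to the solution and freezing in it cannot be told apart. Cooling rate also went with the solution, since the DMSO vials were cooled more slowly. All cells came from 1 line, each condition had 1 library, and only 1 of the 3 fresh libraries had DMSO. No label says whether libraries came from separate cultures, so the p-values measure only the spread between these libraries. That spread includes differences between the conditions pooled in a group, and the rest may be technical.

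Small leucine-rich proteoglycans have a core of leucine-rich repeats that curves around a collagen fibril and, in many of them, chains of chondroitin, dermatan or keratan sulphate. They set the diameter and spacing of collagen fibrils and bind growth factors such as TGF-beta and BMPs, and biglycan released from the matrix also acts on Toll-like receptors. In connective tissues they are made mainly by fibroblasts, tenocytes, chondrocytes and osteoblasts, and stromal cell cultures commonly make decorin, biglycan and lumican. Class I holds asporin (ASPN), decorin (DCN) and biglycan (BGN). Class II holds lumican (LUM), fibromodulin (FMOD), PRELP and osteomodulin (OMD), while osteoglycin (OGN) belongs to class III and podocan (PODN) to class V.

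Counts summed to between 41198716 and 51166666 per library. Markers of mesenchymal stromal cells were abundant in every library, with THY1 at 226.9 to 299.8 CPM (counts per library size, TMM-scaled), ENG at 194.2 to 350.1 CPM and PDGFRB at 304.5 to 414.1 CPM. Markers of tissues rich in these proteoglycans were uneven. TNMD, a tendon membrane protein, reached at most 0.0394 CPM, ACAN, the cartilage proteoglycan aggrecan, 0.0895 CPM, and the osteoblast factor SP7 0.0485 CPM, while the bone sialoprotein gene IBSP was at 0 in all 8 libraries. Other markers on the cartilage and bone lists were present, with the cartilage factor SOX9 at 16.2 to 24.0 CPM and the bone factor RUNX2 at 36.5 to 59.8 CPM, and the cartilage collagen gene COL2A1 at 3.22 to 19.1 CPM. The 3 tendon markers with an entry summed to 0.392 to 0.982 CPM in osmolyte-frozen, 0.434 to 0.525 CPM in DMSO-frozen and 0.194 to 0.455 CPM in fresh libraries. SCX, also on the tendon list, had no entry under that name among the genes counted. The 6 cartilage markers summed to 20.99 to 41.9 CPM in osmolyte-frozen, 31.3 to 40.6 CPM in DMSO-frozen and 36.7 to 41.3 CPM in fresh libraries, and the 7 bone markers to 42.4 to 62.9, 41.2 to 44.1 and 42.8 to 47.4 CPM in the same groups.

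Most of the members lie in clusters of related genes. In hg19 coordinates of the deposited table, chromosome 9 holds OGN from 95146249 to 95166937, OMD from 95176527 to 95186836 and ASPN from 95218489 to 95244844. The related gene ECM2 follows, from 95255829 to 95298374. All 4 lie inside the range of CENPP, a centromere protein gene that spans 95087741 to 95377437 and that RefSeq places on the opposite strand to ASPN, OGN and ECM2. As the strand setting of the counting is not given in the sources used here, reads of CENPP and of these genes may not have been separated. CENPP stayed between 1.74 and 2.37 CPM in all libraries and was not called in any comparison (edgeR quasi-likelihood, adjusted p = 0.634, 0.246 and 0.722). On chromosome 12, LUM lies from 91497232 to 91505542 and DCN from 91539035 to 91576806, and on chromosome 1 FMOD lies from 203309752 to 203320289 and PRELP from 203444883 to 203460479. PODN stands apart on chromosome 1, from 53527724 to 53551174, and BGN on the X chromosome, from 152760347 to 152775004.

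Promoter sequences from RefSeq (GRCh38.p14) were at hand for 6 of the 9 members. The 250 bases before the start of the 5 tested members among them are shown so that their base composition can be compared. Capitals mark matches on either strand to the TATA box TATAAA, to the AP-1 motif TGANTCA, to the TEAD motif CATTCC and to the SMAD motif CAGAC, and no matches overlap here. Of the 2 starts listed for OGN, the one farther upstream is shown.
ASPN (chr9:92482507-92482756, minus strand): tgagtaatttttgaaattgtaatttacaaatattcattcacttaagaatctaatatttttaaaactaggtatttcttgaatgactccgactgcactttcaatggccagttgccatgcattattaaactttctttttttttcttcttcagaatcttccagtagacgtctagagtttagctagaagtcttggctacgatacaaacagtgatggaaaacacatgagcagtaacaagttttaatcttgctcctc
OGN (chr9:92404700-92404949, minus strand): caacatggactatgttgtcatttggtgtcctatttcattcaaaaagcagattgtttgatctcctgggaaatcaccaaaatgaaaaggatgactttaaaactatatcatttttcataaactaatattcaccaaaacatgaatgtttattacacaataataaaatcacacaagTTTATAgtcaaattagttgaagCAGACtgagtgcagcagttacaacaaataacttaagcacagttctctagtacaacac
PRELP (chr1:203475556-203475805, plus strand): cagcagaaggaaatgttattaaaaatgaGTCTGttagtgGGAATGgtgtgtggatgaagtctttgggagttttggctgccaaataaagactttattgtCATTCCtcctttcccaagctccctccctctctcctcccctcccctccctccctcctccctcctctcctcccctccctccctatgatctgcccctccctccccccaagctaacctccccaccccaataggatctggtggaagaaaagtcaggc
BGN (chrX:153494730-153494979, plus strand): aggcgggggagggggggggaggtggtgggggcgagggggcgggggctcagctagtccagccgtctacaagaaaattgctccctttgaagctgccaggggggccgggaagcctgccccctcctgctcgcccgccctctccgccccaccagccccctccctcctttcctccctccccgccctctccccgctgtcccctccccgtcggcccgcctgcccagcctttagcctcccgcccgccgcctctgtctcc
PODN (chr1:53061963-53062212, plus strand): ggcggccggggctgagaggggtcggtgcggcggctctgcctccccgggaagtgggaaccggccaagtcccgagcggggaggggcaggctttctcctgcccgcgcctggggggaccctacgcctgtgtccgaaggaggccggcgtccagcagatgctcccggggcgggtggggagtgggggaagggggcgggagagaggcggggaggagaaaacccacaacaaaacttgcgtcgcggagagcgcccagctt
These promoters differed widely in GC content. It was 31.2% for the OGN start shown and 32.4% for ASPN, 52.8% for PRELP, and 72.4% for PODN and 74% for BGN, against a median of 58% over 35093 promoters of the same length. The OGN and PRELP sequences held 0 CpG pairs and the ASPN sequence 3, whereas BGN held 16 and PODN 23, against a median of 11 over all promoters. No match to any of the 4 motifs was found in the ASPN, BGN or PODN windows. OGN held TATAAA on the strand opposite to the gene, a motif present in 10.7% of all promoters, and CAGAC, present in 38.0%, and PRELP held CATTCC at 2 places, a motif present in 11.9%, and the SMAD motif. The AP-1 motif, present in 6.57% of all promoters, was found in none of the 6 member promoters.

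**Figure D1:**
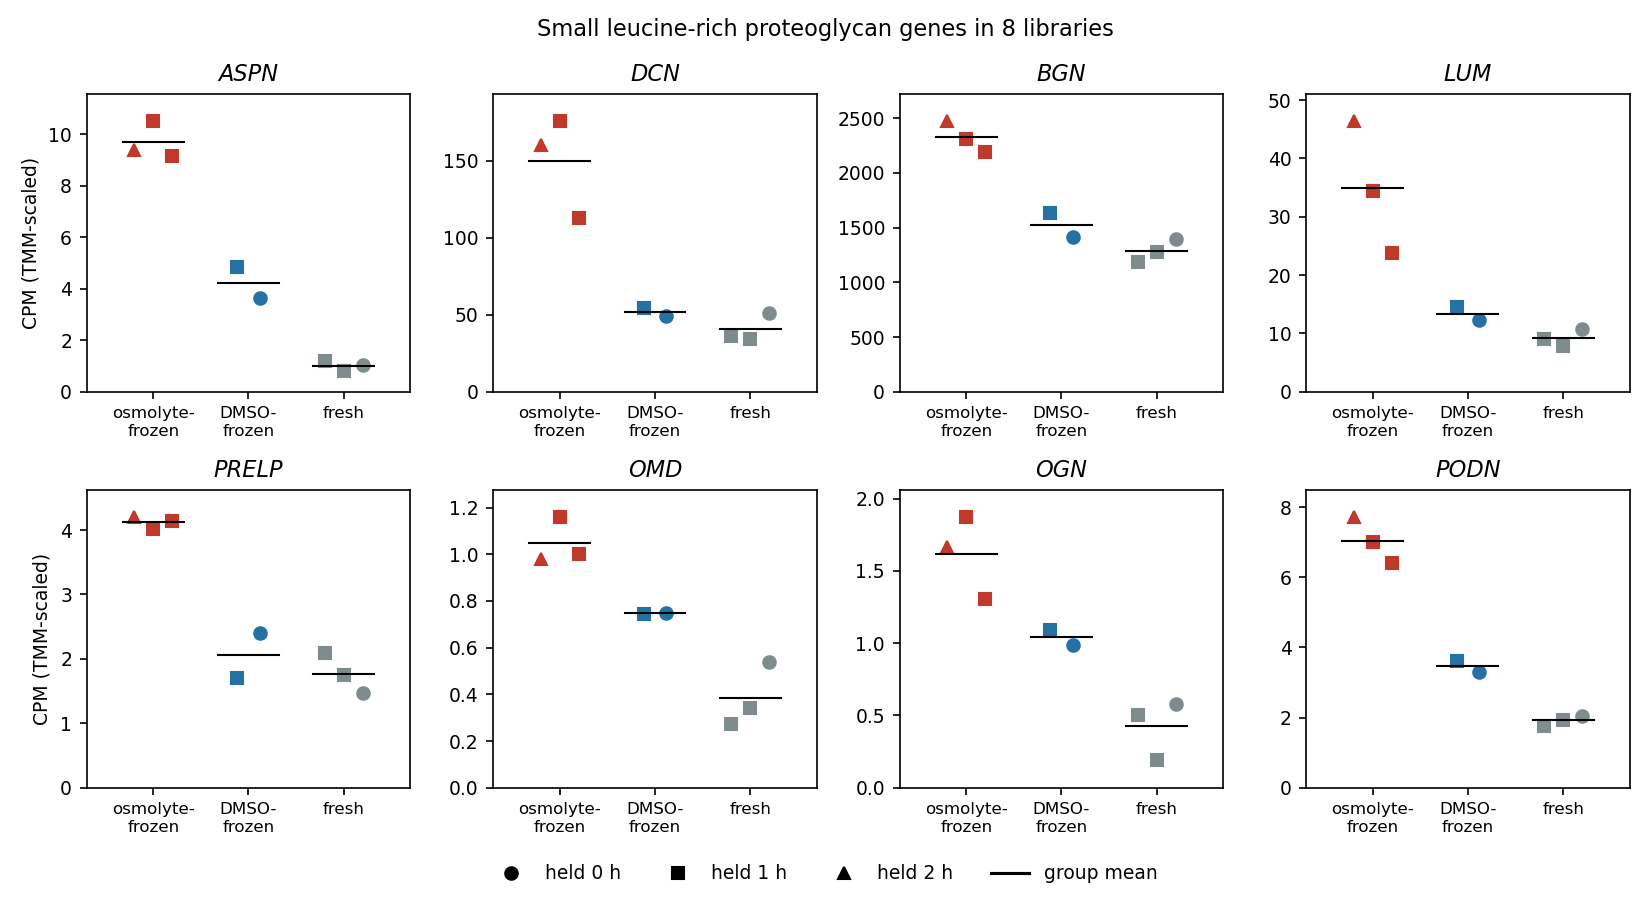
CPM of the 8 tested members on the vertical axes, 1 point per library, grouped as osmolyte-frozen, DMSO-frozen and fresh; point shapes give the holding time and bars the group means. In every panel the 3 osmolyte-frozen libraries lie above all 5 others.

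Cells frozen in the osmolyte solutions had more of every tested member than fresh cells. The rise was 9.54-fold for ASPN, between 3.66-fold and 3.76-fold for DCN, LUM, OGN and PODN, 2.71-fold for OMD, 2.32-fold for PRELP and 1.81-fold for BGN. By edgeR quasi-likelihood 8 of 8 tested members were called higher, against 19.1% of all genes tested (21% were called lower), and for 8 of 8 the 3 osmolyte-frozen libraries lay above the 3 fresh ones, against 24.8% of all genes. The median log2 change was 1.88 over the tested members and 0.02 over all genes. As the members were chosen with earlier results of these data known, these contrasts with all genes are description only. In bulk RNA, more cells of one kind and more RNA per cell cannot be told apart.

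ASPN, whose product binds collagen and holds TGF-beta away from its receptors, was at 9.40 CPM in SMC, 10.5 CPM in SGC and 9.18 CPM in SGI. It was at 1.18 CPM in fresh cells after 1 h with DMSO, 0.825 CPM after 1 h in medium and 1.03 CPM at 0 h. The groups lay far apart, with all fresh values near 1 CPM. The log2 fold change was 3.25 (SE 0.18, 95% interval 2.89 to 3.62, adjusted p = 1.04e-10 by edgeR).

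DCN, the best known binder of TGF-beta in the family and a regulator of fibril thickness, reached 160.5 CPM in SMC, 176.1 CPM in SGC and 112.6 CPM in SGI. Fresh cells had 36.5 CPM after 1 h with DMSO, 34.0 CPM after 1 h in medium and 51.5 CPM at 0 h. The lowest osmolyte-frozen value, that of SGI, was still more than the highest fresh one. DCN had a log2 fold change of 1.88 (SE 0.23, 95% interval 1.32 to 2.44, adjusted p = 0.00110 by edgeR).

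BGN, the most abundant member, was at 2478 CPM in SMC, 2312 CPM in SGC and 2187 CPM in SGI, against 1183 CPM with DMSO, 1275 CPM in medium and 1392 CPM at 0 h in fresh cells. Each group was narrow, and this smallest of the 8 changes had the smallest SE. Its log2 fold change was 0.86 (SE 0.08, 95% interval 0.69 to 1.03, adjusted p = 2.28e-07 by edgeR).

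LUM, the keratan sulphate proteoglycan needed for a clear cornea, stood at 46.5 CPM in SMC, 34.4 CPM in SGC and 23.7 CPM in SGI. Its fresh values were 9.10 CPM with DMSO, 7.91 CPM in medium and 10.8 CPM at 0 h. The osmolyte-frozen libraries spread widely, with SMC at the top and SGI at the bottom, but none came down to the fresh range. The change was 1.91 on the log2 scale (SE 0.26, 95% interval 1.28 to 2.54, adjusted p = 0.00145 by edgeR).

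PRELP, which binds both collagen and heparan sulphate and is thought to tie basement membranes to connective tissue, was at 4.21 CPM in SMC, 4.02 CPM in SGC and 4.13 CPM in SGI. Fresh cells had 2.09 CPM with DMSO, 1.75 CPM in medium and 1.48 CPM at 0 h. The 3 solutions gave nearly the same level. The log2 change was 1.22 (SE 0.19, 95% interval 0.81 to 1.62, adjusted p = 6.59e-05 by edgeR).

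OMD, a keratan sulphate proteoglycan best known from mineralised tissue, was weak throughout, at 0.979 CPM in SMC, 1.16 CPM in SGC and 1.00 CPM in SGI against 0.273, 0.340 and 0.537 CPM in fresh cells with DMSO, in medium and at 0 h. These values rest on 40, 52 and 46 counts in osmolyte-frozen and 12, 14 and 24 counts in fresh libraries. The groups did not overlap, and the log2 change was 1.44 (SE 0.35, 95% interval 0.71 to 2.17, adjusted p = 0.00308 by edgeR). FMOD, a close relative of lumican that is abundant in tendon, had 2 counts in cells frozen in DMSO and held for 1 h, and 0 in the other 7 libraries. Every count in the table is even, so each counted unit is taken as entered 2 times, and a count of 0 then allows up to 3 units, which are 6 deposited counts or 0.118 to 0.147 CPM depending on the library, for counting error only.

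OGN, also called mimecan, was at 1.66 CPM in SMC, 1.88 CPM in SGC and 1.31 CPM in SGI against 0.500 CPM with DMSO, 0.194 CPM in medium and 0.582 CPM at 0 h in fresh cells. Its lowest value, in fresh cells after 1 h in medium, rests on 8 counts. PODN, which restrains smooth muscle growth in mice, was at 7.73 CPM in SMC, 7.01 CPM in SGC and 6.40 CPM in SGI against 1.77 CPM with DMSO, 1.94 CPM in medium and 2.06 CPM at 0 h in fresh cells. Both sets of values left a clear gap between frozen and fresh libraries. The log2 change was 1.91 for OGN (SE 0.34, adjusted p = 0.000231 by edgeR) and 1.87 for PODN (SE 0.15, adjusted p = 3.19e-08 by edgeR).

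Of the 8 tested members, 7 exceeded the count floor of the filter in all 3 fresh libraries. OGN exceeded it in 2 of them and passed the filter, which asks for 3 libraries, only with the frozen ones where it was higher, so its call does not support the count, which is 7 of 7 without it. The calls of all 8 against fresh cells held under each of the 15 other settings tried, with the change of ASPN between 3.13 and 3.38 and that of BGN between 0.80 and 0.90 on the log2 scale. Library composition moved with the same comparison. The nuclear RNAs MALAT1 and NEAT1 made up 0.895% ± 0.0509 of counts in osmolyte-frozen libraries (SD, n = 3), 0.422% ± 0.0414 in DMSO-frozen ones (SD, n = 2) and 0.509% ± 0.0513 in fresh ones (SD, n = 3). Summed levels of 5 smooth muscle markers were 2188 to 2522 CPM in osmolyte-frozen, 1365 to 1369 CPM in DMSO-frozen and 1100.4 to 1265 CPM in fresh libraries. Most of this was TAGLN, at 1015 to 2233 CPM. Of the 5, 4 (ACTA2, CNN1, TAGLN and MYH11) were called higher in osmolyte-frozen than in fresh cells, beside 19.1% of all genes. DES was at most at 0.403 CPM. Summed levels of 7 pluripotency markers were 10.7 to 14.0 CPM in osmolyte-frozen, 6.86 to 7.41 CPM in DMSO-frozen and 7.50 to 8.64 CPM in fresh libraries, with SOX2 at most at 0.0895 CPM. The 5 fat markers summed to 4.55 to 5.96 CPM in osmolyte-frozen, 7.74 to 9.03 CPM in DMSO-frozen and 10.3 to 11.7 CPM in fresh libraries, with FABP4 at most at 0.0870 CPM. Most of the fat sum was PPARG, at 3.67 to 10.7 CPM, called lower against fresh cells with a log2 change of -1.35. ADIPOQ and PLIN1, with log2 changes of 0.53 and 0.06, were not called, and LEP and FABP4 were not tested. The 10 mesenchymal stromal markers summed to 37511 to 49596 CPM in osmolyte-frozen, 34364 to 41612 CPM in DMSO-frozen and 34355 to 36972 CPM in fresh libraries. Most of this sum was COL1A1, at 28921 to 45295 CPM, and most of the list went the other way. In osmolyte-frozen against fresh cells COL1A1 and THY1 were called higher and VIM was not called. ANPEP, CD44, PDGFRA, ENG, ALCAM, NT5E and PDGFRB were called lower, with log2 changes from -1.43 for ANPEP to -0.34 for PDGFRB. The part of these differences in the change of the members was not tested.

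**Figure D2:**
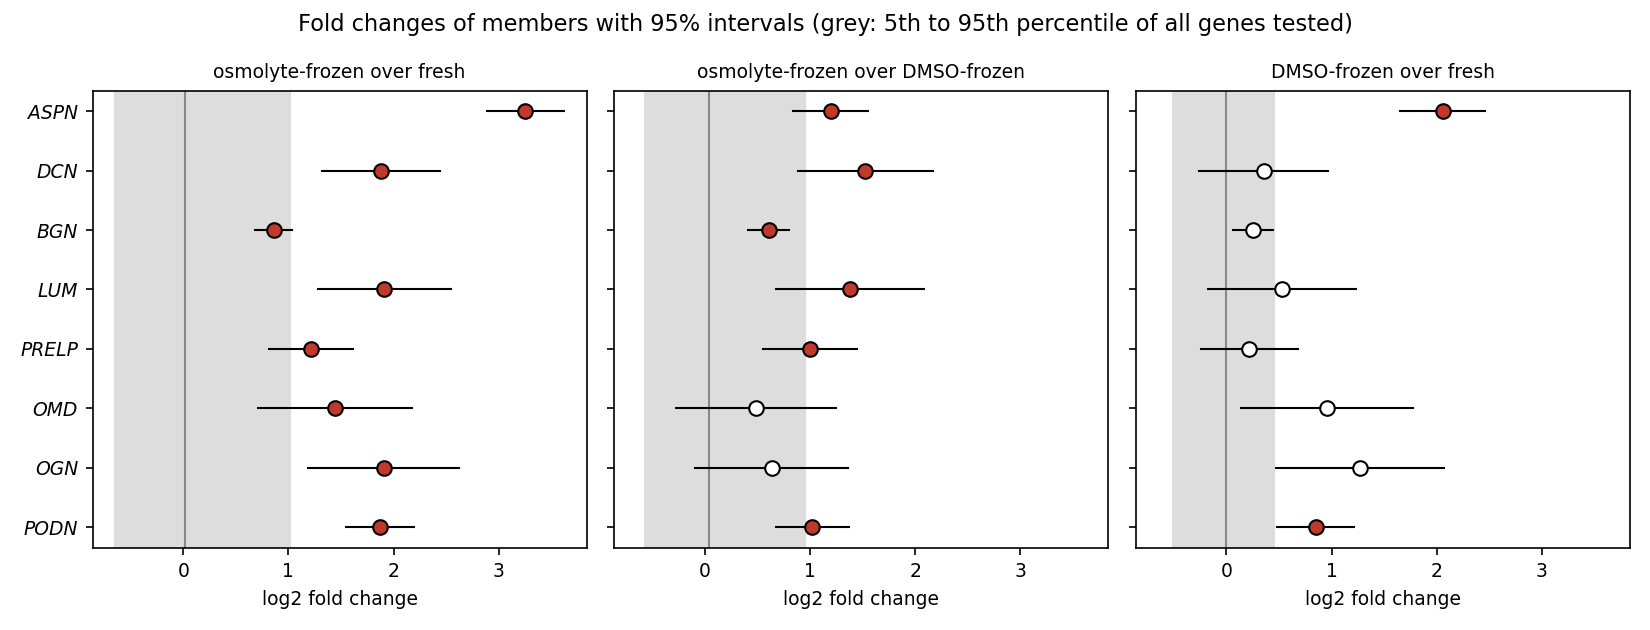
Log2 fold changes (horizontal axis) of the 8 tested members in 3 comparisons, with 95% intervals; red points passed an adjusted p of 0.05, white ones did not, the grey band spans most genes tested and the grey line is their median. ASPN has the largest change against fresh cells in both frozen groups, while DCN has the largest one, 1.53, between osmolyte-frozen and DMSO-frozen cells.

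Set against cells frozen in DMSO, osmolyte-frozen cells again had more of most members. DCN was 2.88-fold higher, LUM 2.60-fold, ASPN 2.29-fold, PODN 2.03-fold, PRELP 2.00-fold and BGN 1.53-fold, and these 6 of 8 tested members were called higher by edgeR, against 13.6% of all genes (16.5% were called lower). For 8 of 8 the osmolyte-frozen libraries all lay above the DMSO-frozen ones, as for 29.1% of all genes. The median log2 change was 1.01 over the tested members and 0.04 over all genes. Of all calls, 45.3% were higher, and 56.4% when libraries were scaled by their totals alone.

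DMSO-frozen cells had 54.7 CPM of DCN after 1 h and 49.3 CPM at 0 h, so the lowest osmolyte-frozen value of 112.6 CPM, in SGI, stood well above both. The log2 change of DCN was 1.53 (SE 0.26, 95% interval 0.89 to 2.17, adjusted p = 0.00714 by edgeR). LUM was at 14.5 CPM after 1 h and 12.3 CPM at 0 h in DMSO-frozen cells, and its log2 change was 1.38 (SE 0.29, 95% interval 0.67 to 2.08, adjusted p = 0.0140 by edgeR). The calls of this pair depended on few libraries. With the 0 h DMSO-frozen library left out, the remaining one is taken to spread as the other groups do, and edgeR gave DCN an adjusted p of 0.0698 and LUM one of 0.119. With the 1 h one left out, LUM had an adjusted p of 0.0665.

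ASPN was at 4.85 CPM after 1 h and 3.63 CPM at 0 h in DMSO-frozen cells, BGN at 1638 and 1411 CPM, PODN at 3.63 and 3.31 CPM and PRELP at 1.70 and 2.41 CPM. All of these lay under the osmolyte-frozen values given above. Their log2 changes were 1.20 (SE 0.17, adjusted p = 5.67e-05) for ASPN, 0.61 (SE 0.09, adjusted p = 0.000110) for BGN, 1.02 (SE 0.16, adjusted p = 0.000187) for PODN and 1.00 (SE 0.21, adjusted p = 0.00188) for PRELP, all by edgeR. OGN, at 1.09 and 0.986 CPM in DMSO-frozen cells, had a log2 change of 0.63 with an interval of -0.09 to 1.36 (adjusted p = 0.176 by edgeR). OMD, at 0.743 and 0.749 CPM, had one of 0.49 with an interval of -0.28 to 1.25 (adjusted p = 0.328). The intervals of both are wide enough to hold the changes of BGN and PODN.

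Fewer members were called in DMSO-frozen cells set against fresh cells. ASPN was 4.16-fold higher and PODN 1.80-fold higher, and these were the 2 of 8 tested members called by edgeR, against 1.25% of all genes called higher (0.617% were called lower). The libraries did not overlap for 6 of 8, as for 16% of all genes in that direction, the exceptions being DCN and PRELP. OGN is among these 6 but passed the filter only with the frozen libraries, so it adds no support to this count. The log2 change of ASPN was 2.06 (SE 0.19, 95% interval 1.65 to 2.46, adjusted p = 8.66e-06 by edgeR) and that of PODN 0.85 (SE 0.17, 95% interval 0.49 to 1.21, adjusted p = 0.0119 by edgeR). ASPN was called without either DMSO-frozen library, while the adjusted p of PODN by edgeR was 0.141 without the 1 h library and 0.0723 without the 0 h library, under the same assumption on the spread.

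The other 6 members did not pass. OGN had a log2 change of 1.27 (95% interval 0.48 to 2.07, adjusted p = 0.114 by edgeR) and OMD one of 0.95 (95% interval 0.14 to 1.77, adjusted p = 0.287), so these weakly expressed genes of the chromosome 9 cluster had larger estimates than PODN but wider errors. LUM had 0.53 (95% interval -0.17 to 1.23), DCN 0.35 (95% interval -0.26 to 0.97), BGN 0.25 (95% interval 0.06 to 0.44) and PRELP 0.22 (95% interval -0.24 to 0.68). The median was 0.69 over the tested members and -0.01 over all genes. The comparisons with fresh cells share the same 3 fresh libraries, and those with DMSO-frozen cells the same 2 libraries.

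Pairs of single libraries were also set side by side. They have no replicate, and the 95% intervals of ratios cover counting error only, with each counted unit again taken as entered 2 times. At 1 h with DMSO in both, frozen cells over fresh cells had a ratio of 4.10 (2.66 to 6.55) for ASPN, 2.05 (1.38 to 3.07) for PODN, 1.50 (1.37 to 1.64) for DCN, 1.59 (1.33 to 1.91) for LUM and 1.39 (1.36 to 1.41) for BGN. The weakly expressed OMD and OGN had ratios of 2.72 (1.02 to 8.44) and 2.18 (1.04 to 4.92), and PRELP one of 0.815 (0.518 to 1.28). Here 4 of 8 members were at least 2-fold higher, as were 1.88% of all genes. OGN is among these 4 and adds no support to the count, as it passed the filter only with the frozen libraries. At 0 h the ratio of DMSO-frozen to fresh cells was 3.53 (2.21 to 5.84) for ASPN and 1.61 (1.11 to 2.36) for PODN, but 0.958 (0.884 to 1.04) for DCN, 1.01 (0.998 to 1.03) for BGN and 1.14 (0.965 to 1.36) for LUM. OMD was at 1.40 (0.643 to 3.15), OGN at 1.70 (0.835 to 3.61) and PRELP at 1.63 (1.05 to 2.57). The ratios of ASPN and PODN thus had intervals above 1 at both times, those of DCN, LUM, BGN, OMD and OGN at 1 h but not at 0 h, and that of PRELP at 0 h but not at 1 h. For LUM, OMD, OGN and PRELP the intervals at 1 h and at 0 h overlapped, so no difference between the times is shown for these. The fresh cells had DMSO in the first pair but not in the second, so time and DMSO cannot be told apart. At 0 h, 1 of 8 members was at least 2-fold higher, as were 1.43% of all genes.

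Within fresh cells, 1 h in medium went with less DCN than 0 h, at a ratio of 0.661 (0.601 to 0.727), and with less LUM, at 0.733 (0.597 to 0.898). BGN was at 0.916 (0.901 to 0.931) of its 0 h level. OGN, at 8 against 26 counts, was the 1 of 8 members at least 2-fold lower, as were 2.21% of all genes. DMSO for 1 h gave ratios near 1 over medium for 1 h, at 1.07 (0.968 to 1.19) for DCN and 0.928 (0.912 to 0.944) for BGN, with 1 of 8 members at least 2-fold higher, OGN at 22 against 8 counts, as were 2.24% of all genes. Among the osmolyte solutions, SGC exceeded SGI, both held for 1 h, in DCN at 1.56 (1.49 to 1.64) and in LUM at 1.45 (1.30 to 1.62), while ASPN was at 1.15 (0.949 to 1.39) and PRELP at 0.972 (0.721 to 1.31). No member differed 2-fold between them, as 0.9% of all genes did upward. SMC was held longer than the others and gave the highest LUM, BGN, PODN and PRELP, at 46.5, 2478, 7.73 and 4.21 CPM. It did not give the highest DCN, ASPN, OMD or OGN. Over cells frozen in DMSO and held for the same 1 h, the DCN ratio was 3.22 (3.02 to 3.43) for SGC and 2.06 (1.92 to 2.20) for SGI, with 4 of 8 members at least 2-fold higher in SGC, as were 5.38% of all genes, and 2 of 8 in SGI, as were 6.01%.

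**Figure D3:**
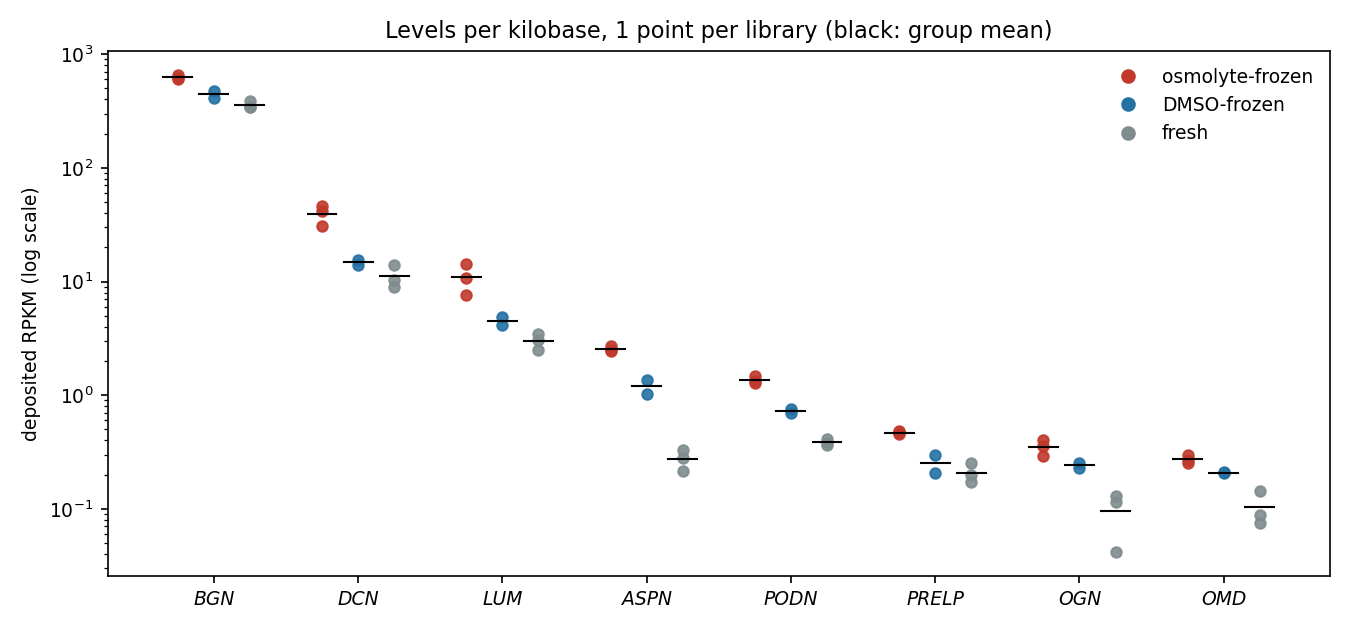
Deposited RPKM of the 8 tested members on a log axis, 1 point per library, with osmolyte-frozen, DMSO-frozen and fresh groups side by side and bars at the group means. BGN lies far above all others, and ASPN stands above PODN in frozen cells but below it in fresh cells.

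Compared per kilobase of gene model, in the RPKM values the authors deposited, the members spanned a wide range of levels. In osmolyte-frozen cells BGN was at 630.2 ± 27.5 RPKM, DCN at 39.4 ± 7.92, LUM at 10.9 ± 3.35, ASPN at 2.55 ± 0.162, PODN at 1.36 ± 0.102, PRELP at 0.469 ± 0.0165, OGN at 0.348 ± 0.0551 and OMD at 0.273 ± 0.0241 RPKM (SD, n = 3 each). BGN ranked between 35 and 91 among 23354 genes by RPKM, depending on the library. The libraries of neighbours in this order did not overlap, except for OGN, at 0.290 to 0.400 RPKM, and OMD, at 0.251 to 0.299 RPKM. In DMSO-frozen cells ASPN, at 1.36 and 1.03 RPKM, was again above PODN, at 0.750 and 0.693 RPKM, whereas PRELP, OGN and OMD lay together between 0.207 and 0.296 RPKM. Fresh cells had the reverse order, with PODN at 0.367 to 0.412 RPKM above ASPN at 0.216 to 0.331 RPKM. BGN made up 92.0% ± 1.30 of the summed RPKM of the members in osmolyte-frozen cells (SD, n = 3), 95.3% ± 0.0954 in DMSO-frozen cells (SD, n = 2) and 96.0% ± 0.556 in fresh cells (SD, n = 3). The ratio of BGN to DCN was 16.4 ± 3.27 in osmolyte-frozen, 30.1 ± 0.959 in DMSO-frozen and 33.2 ± 5.36 in fresh cells, and that of DCN to LUM was 3.74 ± 0.736, 3.28 ± 0.126 and 3.68 ± 0.324 in the same groups (SD, n = 3, 2 and 3). The osmolyte-frozen ratios of DCN to LUM, at 2.91 to 4.31, spanned those of both other groups, and the DMSO-frozen ones, at 3.19 and 3.37, lay just under the fresh ones, at 3.38 to 4.02. All osmolyte-frozen ratios of BGN to DCN lay below those of the other groups.

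Profiles over the 8 libraries were compared by the root mean square distance of log2 CPM centred on each gene's mean. DCN and LUM were each other's nearest gene, at 0.180, among 10699 candidate genes with a mean of at least 5 CPM. The genes next nearest to DCN were NTM at 0.195 and SRCRB4D at 0.198, and those next nearest to LUM were CDKN2B at 0.195 and CPE at 0.199. BGN had BMP1 at 0.0414, IDUA at 0.0564 and NRBP2 at 0.0676. ASPN, whose range was widest, had DKK2 at 0.269, B3GALT2 at 0.304 and LRRN1 at 0.305. PODN was closest to COL8A2, IGFBP5 and FZD1, PRELP to JDP2, KRT7 and DDIT3, OMD to SCG2, BMP2 and DCHS1, and OGN to VLDLR, FAM198B and NRK, at distances from 0.0918 to 0.288. Between members the distance was largest for ASPN and BGN, at 1.07. These distances describe libraries that share the large difference between groups.

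**Figure D4:**
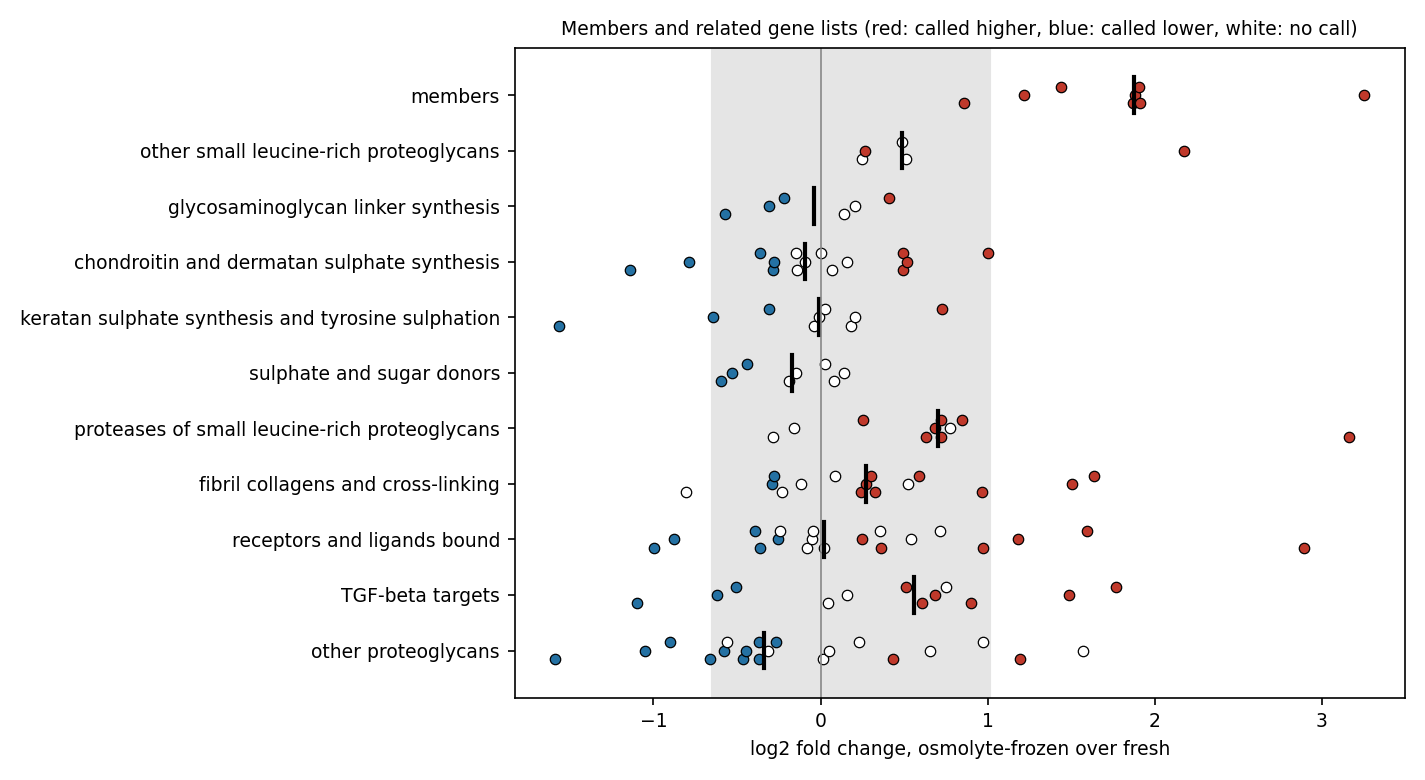
Log2 fold change of osmolyte-frozen over fresh cells (horizontal axis) for each tested gene of the members and 10 related lists, with black bars at list medians and a grey band over the span of most genes tested. The members' median of 1.88 lies to the right of every other list's median, the next being 0.70 for the protease list. Members and lists were chosen with earlier results of these data known.

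Other small leucine-rich proteoglycans did not all follow. Of 9 further family genes, EPYC, KERA, OPTC and NYX were at or near 0 and could not be tested. ECM2, the neighbour of ASPN, was higher in osmolyte-frozen cells, at 3.22 ± 1.12 CPM against 1.40 ± 0.309 CPM in DMSO-frozen cells (SD, n = 3 and 2) and 0.712 ± 0.164 CPM in fresh cells (SD, n = 3). Its log2 change was 2.18 against fresh (SE 0.29, adjusted p = 1.18e-05 by edgeR) and its fold 2.29 against DMSO-frozen cells (adjusted p = 0.00629 by edgeR). TSKU, a secreted inhibitor of BMP and WNT signals, was 1.20-fold higher than in fresh cells (adjusted p = 0.0107 by edgeR). PODNL1, a relative of podocan, was 1.66-fold higher than in DMSO-frozen cells (adjusted p = 0.0191 by edgeR) and had an adjusted p of 0.0526 against fresh cells. The weakly expressed CHAD and CHADL had log2 changes of 0.25 and 0.51 against fresh cells and did not pass.

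Genes next to the members in the genome went both ways in osmolyte-frozen against fresh cells. NOL8, which precedes the chromosome 9 cluster, had a log2 change of 0.04 (adjusted p = 0.711 by edgeR). BTG2, next to FMOD, was lower by -0.50 (adjusted p = 0.000510), SCP2, next to PODN, was lower by -0.30 (adjusted p = 0.00340) and HAUS7, next to BGN, was higher by 0.52 (adjusted p = 0.000136). SLC1A7, on the other side of PODN, and ATP2B3, on the other side of BGN, were called higher from very low levels, at most 0.313 CPM for SLC1A7 (adjusted p = 0.0196) and 0.783 CPM for ATP2B3 (adjusted p = 0.0480). SLC1A7 passed the filter only through the osmolyte-frozen libraries, so its call adds no support to counts of neighbours. It was at least at 0.261 CPM there and at most at 0.0910 CPM in all others. Of 20 tested genes in a wider list around the members, 5 were higher and 6 lower, beside 19.1% and 21% of all genes, with CHI3L1, a secreted glycoprotein gene, lower by -2.55 and ATP2B4, a calcium pump gene, by -1.11.

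The enzymes that build the sugar chains went in both directions. Of 6 genes for the linker that joins the chains to the core protein, 1 was higher and 3 were lower in osmolyte-frozen than in fresh cells, with a median log2 change of -0.04. XYLT1, the xylosyltransferase that starts the chain, was lower by -0.31, FAM20B, the xylose kinase, by -0.57, and B3GALT6, a linker galactosyltransferase, was higher by 0.41. Of 15 tested genes of chondroitin and dermatan sulphate synthesis, 4 were higher and 5 lower, with a median of -0.10. Over all genes 19.1% were higher and 21% lower in this comparison. CHPF, a polymerising factor, was 2.00-fold higher, at 413.6 ± 39.2 CPM against 206.4 ± 19.9 CPM in fresh cells (SD, n = 3 each). The epimerase gene DSEL was lower by -1.14 and the chondroitin sulphotransferase gene CHST11 by -0.79. DSEL converts glucuronate to iduronate, the step that turns chondroitin into dermatan sulphate. Against DMSO-frozen cells DSEL was lower by -0.97 and the second epimerase gene, DSE, by -0.48.

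Of 9 tested genes of keratan sulphate synthesis and tyrosine sulphation, 1 was higher and 3 were lower in osmolyte-frozen than in fresh cells. Among them were the sulphotransferase genes CHST6, higher by 0.73, and CHST1, lower by -1.56. Of 8 genes that supply sulphate and sugar donors, 0 were higher and 3 lower by edgeR in the same comparison, with a median of -0.17. Both lists stand beside 19.1% of all genes higher and 21% lower. UGDH, which makes UDP-glucuronate, was lower by -0.60 and PAPSS2, which makes the sulphate donor, by -0.53. Against DMSO-frozen cells the same 4 lists had medians between -0.32 and -0.02, with 3 genes higher and 14 lower of 38 tested, beside 13.6% and 16.5% of all genes.

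Most tested genes on a list of proteases that act on these proteoglycans were higher. The list also holds PCOLCE, a protease enhancer that is not itself a protease. Of 10 tested, 7 were higher and 0 lower in osmolyte-frozen than in fresh cells, with a median of 0.70, beside 19.1% and 21% of all genes. TLL1, among the 10, passed the filter only through the osmolyte-frozen libraries, so it adds no support to the counts of this list. It was at 0.391 to 0.714 CPM there and at most 0.175 CPM in all others, under the floor of 0.227 CPM. BMP1, which removes the propeptide of biglycan, was at 262.9 ± 18.4 CPM against 146.4 ± 6.31 CPM in fresh cells (SD, n = 3 each), a log2 change of 0.84 (adjusted p = 2.37e-07 by edgeR). HTRA1, a serine protease that cleaves decorin and biglycan, was higher by 0.72 and the metalloproteases MMP2 and MMP14 by 0.69 and 0.63. Against DMSO-frozen cells 4 of 10 were higher and 0 lower, beside 13.6% and 16.5% of all genes. BMP1 was higher by 0.65, HTRA1 by 0.43 and MMP14 by 0.34.

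Of 15 fibril collagens and cross-linking enzymes, 8 were higher and 2 lower against fresh cells, beside 19.1% and 21% of all genes, with a median of 0.27. LOXL4, a lysyl oxidase, was higher by 1.51, COL5A3 by 0.96, COL3A1 by 0.59 and COL1A1 by 0.32. The median of this list against DMSO-frozen cells was -0.06, with 3 higher and 2 lower, beside 13.6% and 16.5% of all genes, among them COL12A1, lower by -0.60, and COL14A1, lower by -0.64.

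Growth factors and receptors that members bind went both ways, with 6 of 19 tested higher and 5 lower against fresh cells, beside 19.1% and 21% of all genes, and a median of 0.02. BMP4 was higher by 2.89, at 13.6 ± 1.59 CPM against 1.83 ± 0.156 CPM in fresh cells (SD, n = 3 each), BMP2 by 1.59, and TLR2, a receptor of biglycan, by 1.18. EGFR, which decorin binds, was lower, at 88.9 ± 8.51 CPM against 177.5 ± 29.5 CPM in fresh cells (SD, n = 3 each). Of 12 TGF-beta targets, 6 were higher and 3 lower, beside the same shares of all genes, with CDKN2B higher by 1.77 and TGFBI lower by -1.10. Among 25 proteoglycans outside the family, 20 were tested, of which 2 were higher and 10 lower, beside the same shares, with a median of -0.34. TGFBR3, a proteoglycan co-receptor of TGF-beta, was lower by -1.05, SDC3, a syndecan, by -0.66 and HSPG2, perlecan, by -0.58, while GPC2, a glypican, was higher by 1.19.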

How the data were processed

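Counts and RPKM values of 8 libraries were used as the authors deposited them, 1 count and 1 RPKM per gene in each library, per the file headers. The submitters' processing notes name CASAVA 1.9, TopHat (version given as 12.0.6), HTSeq and hg19; for annotation release and strand setting, a source was not at hand. The deposited counts are whole numbers with no normalisation, 0 of them odd. The RPKM values deposited by the authors imply, from the values, a total above the sum of counts and served only to compare levels between genes. Of 49 repeated gene identifiers, 41 with identical counts were kept once and 8 with differing counts separately, leaving 23354 genes. Libraries of a group differed by a chi-square per degree of freedom of 6.48 to 21.0, so none was merged.

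All 3 groups were fitted together with edgeR 4.0.16 in R 4.3.3 (filterByExpr by fresh or frozen state, TMM, robust glmQLFit, glmQLFTest), with Benjamini-Hochberg adjustment over 15564 genes at 0.05. CPM use TMM sizes and single-library ratios exact binomial 95% intervals, for counting error only. The fit was tested on simulated data. Members and lists were chosen with earlier results of these data known. Named were all members and, per list and comparison, up to 4 called genes whose libraries did not overlap, with at least 5 CPM on the higher side, by size of change, besides family genes, neighbours and, per member, 3 genes of nearest profile. Alternatives were DESeq2 1.42.0, other scalings, no filter, halved counts, 2 groups only and leaving out libraries.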

Additional observations from a re-analysis of the deposited data

How the results depend on the processing

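Of 360 refits of 24 member changes (8 members, 3 comparisons) under 15 other settings, 350 kept direction and side of the threshold, 8 lost the call, 0 gained one and 2 turned direction. PRELP in DMSO-frozen against fresh cells ranged from -0.055, with the 0 h DMSO-frozen library left out, to 0.44, with the 1 h one left out, and was -0.17 with 1 h libraries only, a setting added after the data were seen; the cause was not tested, and PRELP did not pass under these settings. All 8 members stayed called in osmolyte-frozen against fresh cells, where 5001 to 6080 genes were called without 1 library. Against DMSO-frozen cells 4 to 6 members were called without 1 library, and 2136 to 5254 genes in place of 4684. DCN lost its call with 1 h libraries only (adjusted p = 0.0677 by edgeR, 2359 genes called) and LUM in a fit of the 2 groups alone (adjusted p = 0.0557). In DMSO-frozen against fresh cells 1 or 2 members were called without 1 library, and 91 to 311 genes in place of 291. With 1 h libraries only 1 member, ASPN, and 164 genes were called; DESeq2 called 496 genes and the same 2 members. With 1 h libraries only PODN had an adjusted p of 0.0507 by edgeR. OMD and OGN, under 2 CPM, rest on at most 84 counts in a library. No paired analysis was possible because the labels give no replicate numbers and each condition had 1 library.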
